A study of Rattus norvegicus with 30 samples.

Results

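The change in gene expression between day 14 and day 3 after stroke was examined in microglia, macrophages that live in the brain tissue itself, from the injured hemisphere of 12-month-old male rats. The comparison took the 3 samples labelled as ipsilateral at 12 months and 14 days and the 3 labelled as ipsilateral at 12 months and 3 days, 6 of the 30 samples of the series, each hybridised to 1 Affymetrix array. The samples were chosen by their labels, not by any measured value. Stroke was produced by occluding the middle cerebral artery with a filament for 75 min under 1.2% isoflurane, after which blood flow was restored. The opposite hemisphere was sampled on day 14 and on day 3 (3 arrays each), and 3 arrays came from 12-month sham rats, for which neither a day nor a hemisphere is given. The same injured-hemisphere groups existed at 3 months of age (3 arrays each). Every group was male. The strain label of each sample reads Wistar Kyoto, whereas the protocols name spontaneously hypertensive rats, a related line, and both labels apply to all groups. The sources used here do not give how the microglia were isolated. The injured and opposite samples of a group carry the same animal numbers, and the animals of day 14 and day 3 differ, so each value belongs to 1 rat at 1 time.

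As background, microglia around an infarct divide during the first days, change shape and secretion, and clear dying cells and myelin debris. Blood monocytes and macrophages of the brain's borders can enter or expand in the same tissue and share many transcripts with activated microglia. Clearance relies on receptors that bind exposed phosphatidylserine through bridging proteins, on the complement system, which tags material for uptake, and on lysosomes, which digest it. In these bulk samples, fewer cells of a type and less RNA per cell cannot be told apart.

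Values are the authors' log2 signals, which ran from 2.18 to 13.68 over the series. Array medians lay between 5.06 and 5.24. The standard deviation of the signals on an array was 1.98 to 2.01 on day 14 and 2.04 to 2.05 on day 3. Correlations between arrays over all genes tested were 0.992 to 0.993 within day 14 and 0.995 within day 3, against 0.970 to 0.983 between the days. The first principal component held 72.5% of the variance of the 6 arrays and put day 14 at 14.0, 23.8 and 19.8 and day 3 at -20.1, -16.1 and -21.4. The defining microglial genes were high on all 6 arrays. Cx3cr1, the fractalkine receptor, had 11.17, 11.26 and 11.49 on day 14 and 11.35, 11.45 and 11.32 on day 3. P2ry12, a purine receptor of process extension, had 11.10, 11.04 and 11.27 on day 14 and 11.07, 11.43 and 11.12 on day 3. Day 14 replicate 1 stood apart from the other two day 14 arrays in the mean of several gene groups, among them the complement, chemokine and border macrophage lists. In the submitters' sample codes the leading number was the same for all day 3 samples and differed from those of day 14, where replicate 1 again had its own. Its meaning is not given, and whatever it stands for cannot be told apart from the day.

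Of 11675 genes tested, 2404 (20.6%) passed an adjusted p of 0.05 in limma's test between day 14 and day 3. On day 14, 762 genes (6.53%) were higher and 1642 (14.1%) were lower than on day 3. The list counts below stand against these shares of all genes. At least a 2-fold difference was reached by 44 of the higher and 199 of the lower genes, and the median difference over all genes was 0.00 log2 units. The extremes were 2.84 and -4.04 log2 units. After renewed quantile normalization 865 genes were called higher and 1303 lower. With arrays centred on their median the numbers were 572 and 1783. Genes of cell division, respiration and the proteasome were lower on day 14, as were many markers of monocytes and border macrophages. Immediate early genes were higher. Lysosome and phagocytosis, class II and interferon genes had members called in both directions, with more higher than lower.

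**Figure D1:**
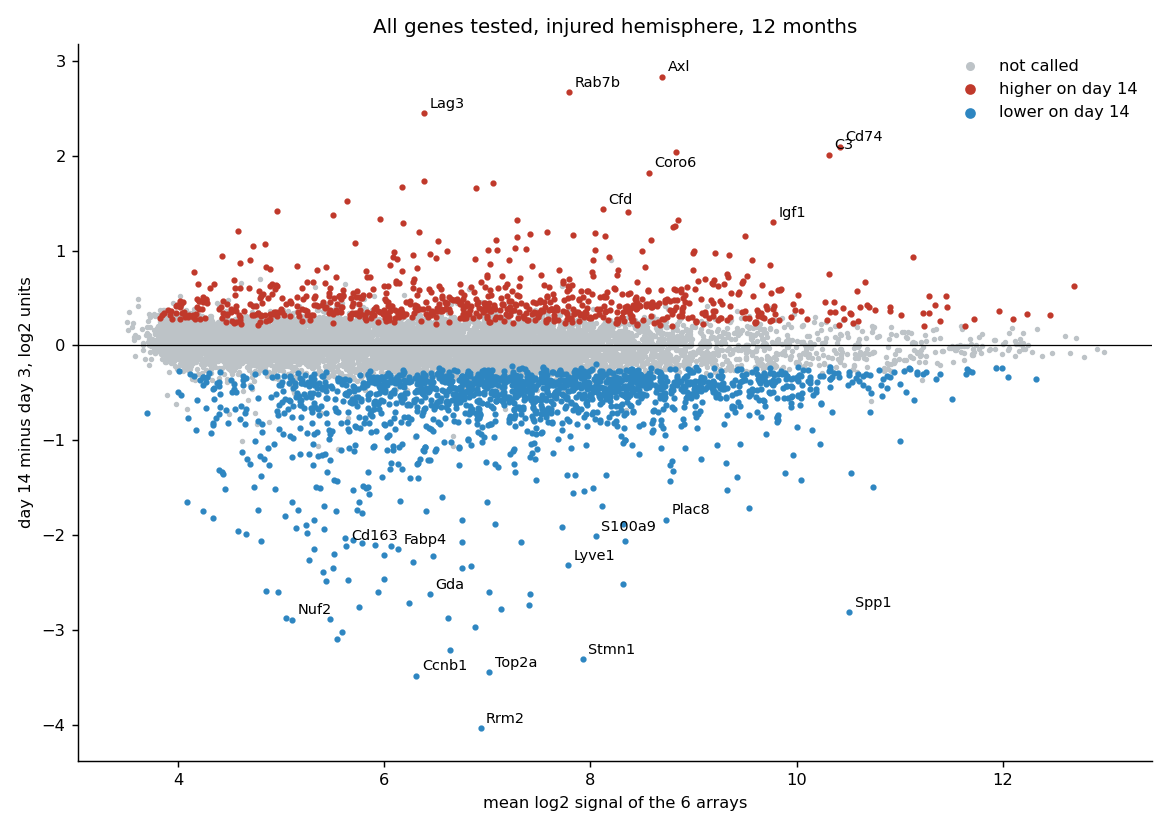
Difference of each of the 11675 genes tested between day 14 and day 3 (vertical axis, log2 units, positive where day 14 was higher) against its mean log2 signal over the 6 arrays; red and blue points passed the adjusted p of 0.05. The downward reach, to Rrm2 at -4.04, exceeded the upward reach, to Axl at 2.84.

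Cell division gave the lowest values of the comparison. Of 58 mitosis genes tested, 54 were lower on day 14, none was higher, and their median difference was -1.87 log2 units. Of 37 genes of S phase and DNA replication, 32 were lower and none was higher, with a median of -1.06. Among all genes, 14.1% were called lower. Rrm2, the small subunit of ribonucleotide reductase, which makes DNA precursors, had 5.57, 4.61 and 4.56 on day 14 and 8.98, 8.74 and 9.13 on day 3. Its difference was -4.04 ± 0.19 log2 units (SE), a signal 16.4-fold higher on day 3. Top2a, the topoisomerase that untangles replicated chromosomes, had 6.04, 5.21 and 4.63 on day 14 and 8.84, 8.60 and 8.79 on day 3 (difference -3.45 ± 0.20). Ccnb1, cyclin B1, had 5.16, 4.41 and 4.15 on day 14 and 8.16, 7.89 and 8.11 on day 3 (difference -3.48 ± 0.20). In each of the 3 genes the day 14 and day 3 arrays did not overlap, and day 14 replicate 1 was the highest of the day 14 arrays. The adjusted p values in limma were 6.5e-16 for Rrm2, 3.6e-14 for Top2a and 3.6e-14 for Ccnb1. Sham arrays read 4.73, 4.88 and 4.95 for Top2a and 4.56, 4.48 and 4.51 for Rrm2, within or just below the range of day 14.

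Other division genes among the 15 lowest of the comparison covered successive steps of mitosis. Cdk1, the kinase that cyclin B1 activates, differed by -3.10 ± 0.16 log2 units and Plk1, a kinase of spindle and centrosome, by -2.88 ± 0.13. Cdk1 had 4.52, 3.64 and 3.81 on day 14 and 7.14, 6.89 and 7.25 on day 3. Bub1 and Bub1b of the spindle checkpoint differed by -3.02 and -2.88, and Ndc80 of the outer kinetochore by -2.76. Tpx2, a spindle assembly factor, Stmn1, which destabilises microtubules, Pttg1, the securin that guards chromatid separation, and Pclaf, which binds the replication clamp, differed by -3.21, -3.31, -2.78 and -2.97. The kinetochore protein Nuf2 and the motor protein Kif4a lay under the 30th percentile of signal on all 3 day 14 arrays, so that only a bound could be given there. The bound on the difference was -2.42 log2 units for Nuf2 and -2.34 for Kif4a, each the smallest drop the signals allow. Cdk1, Bub1 and Bub1b lay under that percentile on 2 of the 3 day 14 arrays, so that their differences rest partly on such dim signals. Of the S phase genes, Gins1 of the replicative helicase differed by -2.72 ± 0.15 and Mcm5, a subunit of the same helicase, by -1.77 ± 0.15. Foxm1, a transcription factor of late cell cycle genes, differed by -1.09 ± 0.11. The exceptions included Pcna, the replication clamp, with 10.65, 10.62 and 10.71 on day 14 and 10.44, 10.42 and 10.43 on day 3, which was not called (adjusted p = 0.10, limma). Aurka, a centrosomal kinase, had 8.22, 8.28 and 8.28 on day 14 and 8.14, 8.29 and 8.16 on day 3 and was not called either. The mean signal of the mitosis list was 5.14, 4.82 and 4.79 on day 14 and 6.80, 6.70 and 6.83 on day 3, with sham arrays at 4.79 to 4.82. Without day 14 replicate 1, the counts of called mitosis and S phase genes were again 54 and 32.

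Many promoters of late cell cycle genes carry a short element, the cell cycle homology region (CHR, letters TTTGAA), through which the DREAM complex and B-MYB with FOXM1 act in mammals. It was searched on both strands in RefSeq promoters of the GRCr8 assembly, 250 bases before to 50 after each gene's start. The promoters of 4 called mitosis genes are shown, 5′ to 3′ on the strand of the gene. All 4 carry the element, marked by capitals, and their products drive entry into and passage through mitosis. The promoters of Ccnb1 and Bub1, both called lower, held no match, and neither did that of Aurka.
Cdk1: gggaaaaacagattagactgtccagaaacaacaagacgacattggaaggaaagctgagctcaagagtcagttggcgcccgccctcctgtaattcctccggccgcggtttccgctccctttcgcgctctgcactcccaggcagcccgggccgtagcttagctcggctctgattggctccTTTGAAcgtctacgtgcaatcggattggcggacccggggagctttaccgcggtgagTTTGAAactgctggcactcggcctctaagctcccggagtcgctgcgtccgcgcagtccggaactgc
Ccnb2: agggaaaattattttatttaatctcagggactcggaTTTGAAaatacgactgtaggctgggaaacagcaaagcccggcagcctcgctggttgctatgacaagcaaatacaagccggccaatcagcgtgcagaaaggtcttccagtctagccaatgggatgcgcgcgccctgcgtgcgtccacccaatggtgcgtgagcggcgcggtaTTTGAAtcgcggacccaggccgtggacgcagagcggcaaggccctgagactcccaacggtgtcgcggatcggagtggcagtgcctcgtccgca
Top2a: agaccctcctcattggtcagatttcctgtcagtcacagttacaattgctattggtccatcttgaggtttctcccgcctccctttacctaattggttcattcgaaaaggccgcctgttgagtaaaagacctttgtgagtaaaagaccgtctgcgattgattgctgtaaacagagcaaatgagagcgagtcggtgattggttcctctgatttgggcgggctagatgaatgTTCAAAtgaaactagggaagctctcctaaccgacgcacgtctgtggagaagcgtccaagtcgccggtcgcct
Plk1: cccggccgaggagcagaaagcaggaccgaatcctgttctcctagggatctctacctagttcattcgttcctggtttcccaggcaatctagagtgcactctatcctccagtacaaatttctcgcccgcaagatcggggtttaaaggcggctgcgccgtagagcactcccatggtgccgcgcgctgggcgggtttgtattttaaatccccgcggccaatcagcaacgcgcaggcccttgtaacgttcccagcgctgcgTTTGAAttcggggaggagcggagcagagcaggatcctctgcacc
They lie at chr20:19265043-19265342 (plus strand), chr8:79981609-79981908 (minus strand), chr10:84473044-84473343 (minus strand) and chr1:186147408-186147707 (plus strand), in the order shown. Ccnb2, cyclin B2, had 6.66, 5.67 and 5.97 on day 14 and 8.82, 8.53 and 8.82 on day 3. In Cdk1 the element began at -72 and -16 relative to the start, in Ccnb2 at -214 and -43, in Top2a at -22, on the opposite strand, and in Plk1 at +7. Of 46 mitosis members called lower that had a promoter in the table, 32 (69.6%) held TTTGAA. The share was 12.5% over the genes tested with a promoter and 18.1% over all 27457 promoters of the table. Among the S phase members called lower it was 1 of 27 (3.7%). Of the 4 mitosis members that were not called, 3 held it too. The CCAAT box, searched in the same windows, was found in 71.7% of the called mitosis promoters, 59.3% of the called S phase promoters and 37.7% of those tested. A match is a run of letters, not a measured binding site.

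**Figure D2:**
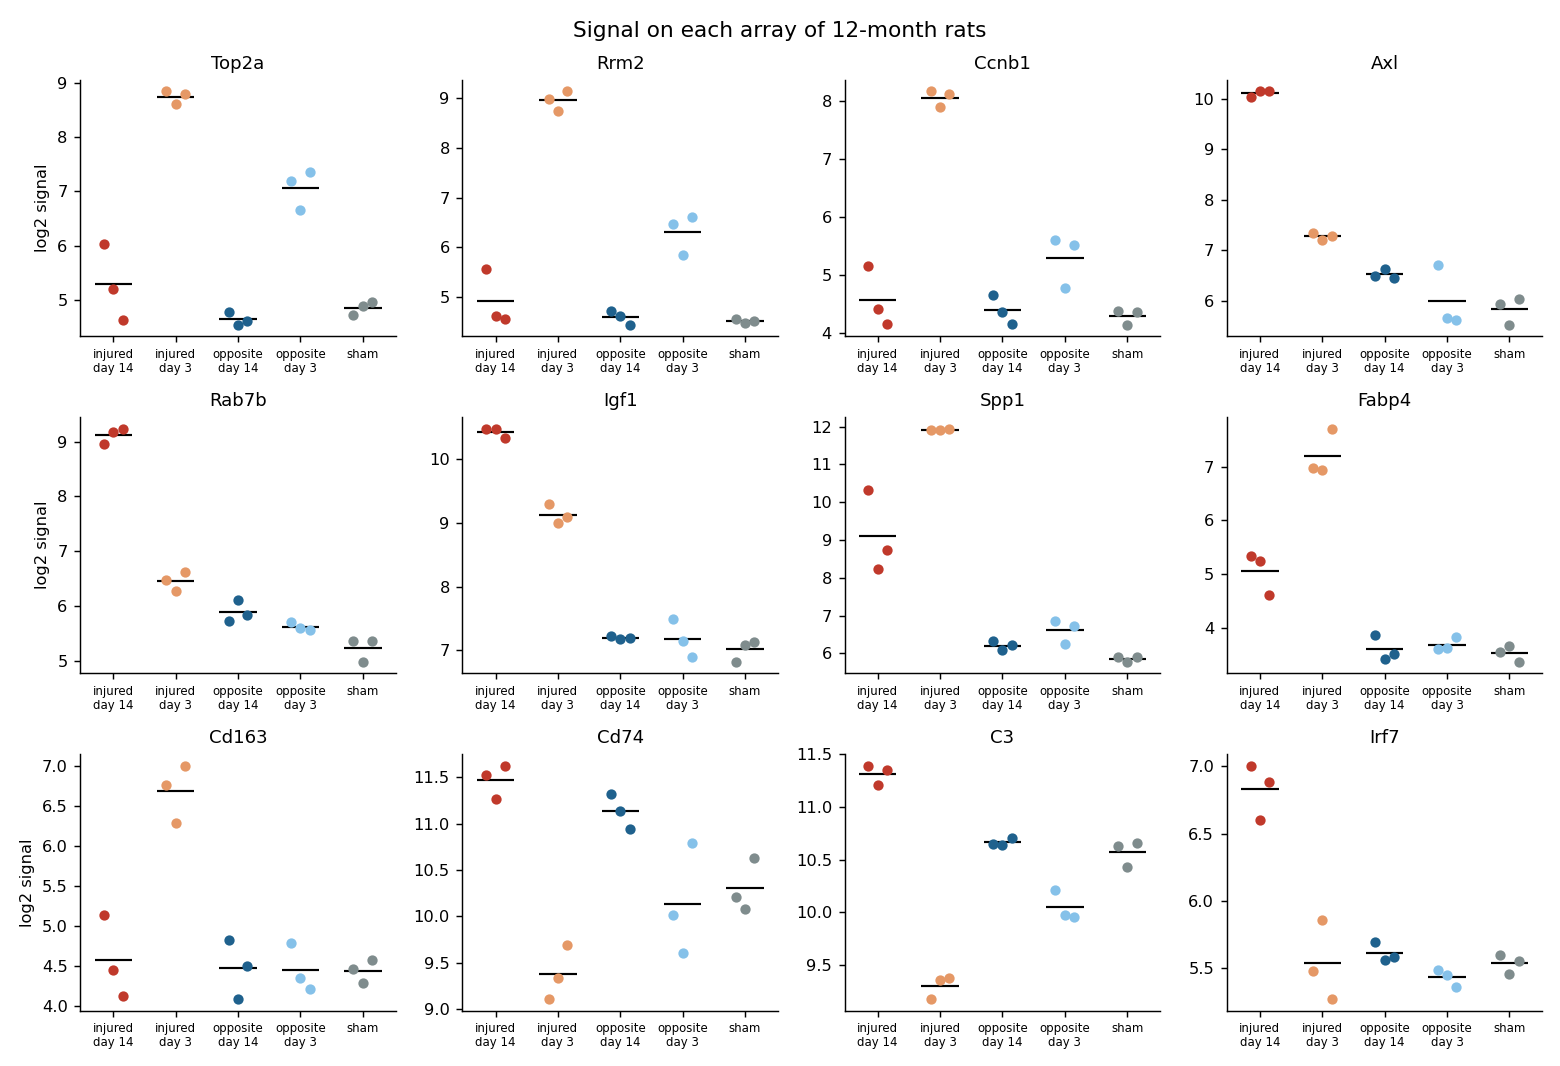
Log2 signal of 12 genes on each 12-month array (vertical axes), with injured and opposite hemispheres at day 14 and day 3 and sham rats along the horizontal axis; points are arrays and bars are means of 3. For Rrm2 the day 14 arrays of the injured hemisphere sat at 4.56 to 5.57 and the day 3 arrays at 8.74 to 9.13.

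Transcripts of respiration were lower on day 14 by small amounts in most members. Of 65 oxidative phosphorylation genes, 49 were lower and none higher, with a median of -0.36 log2 units. Ndufa12, an accessory subunit of complex I, had 7.25, 7.13 and 7.21 on day 14 and 8.26, 8.02 and 8.27 on day 3, a difference of -0.99 ± 0.12. Cox7b of cytochrome c oxidase differed by -0.81 ± 0.11 and Atp5f1a, the alpha subunit of ATP synthase, by -0.74 ± 0.12. Ndufs5, another complex I subunit, differed by -0.78 ± 0.15. Ndufa1 of complex I had 11.77, 11.72 and 11.62 on day 14 and 11.54, 11.51 and 11.43 on day 3 and was not called. Of 27 genes of the tricarboxylic acid cycle and beta-oxidation, 17 were lower. They included Idh3a of the cycle (-0.90 ± 0.11), Hadhb of beta-oxidation (-0.78 ± 0.13) and Cpt1a, which brings fatty acids into mitochondria (-0.70 ± 0.14). The single higher member was Pdk4, a kinase that shuts pyruvate dehydrogenase. Pdk4 had 9.41, 9.17 and 9.71 on day 14 and 8.40, 7.90 and 8.21 on day 3, a difference of 1.25 ± 0.18, with sham arrays at 4.87, 4.98 and 5.05.

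Proteasome genes were mostly lower on day 14, whereas the list of glycolysis and hypoxia-linked genes had members called in both directions, with more lower than higher. Of 30 proteasome genes, 26 were lower on day 14 and none was higher, with a median of -0.39. Psmd8, of the regulatory particle, had 7.39, 7.27 and 7.29 on day 14 and 8.25, 8.14 and 8.44 on day 3 (difference -0.96 ± 0.14, or -0.40 for the mean of its probe sets). Of 29 glycolysis and hypoxia-linked genes, 10 were lower and 4 were higher, with 1 higher without day 3 replicate 1 and 2 higher without day 14 replicate 1 or 3. Pgk1 differed by -0.94 ± 0.09 and Ldha, lactate dehydrogenase A, by -0.83 ± 0.13, whereas Adm, the peptide adrenomedullin, was higher by 0.73. Of 26 genes of actin and migration, 17 were lower and 2 higher (1 without day 14 replicate 2 or day 3 replicate 1), with Vim, vimentin, at -1.04 and Cfl1, cofilin, at -0.61. The 48 cytosolic ribosomal protein genes had 5 lower members, none higher and a median of -0.08. The number called lower was 1 without day 14 replicate 2 or 3 or day 3 replicate 3, 2 without day 3 replicate 1, 3 without day 14 replicate 1 and 8 with the stricter filter. Means of the oxidative phosphorylation list were 9.30, 9.17 and 9.20 on day 14 and 9.64, 9.55 and 9.63 on day 3, and those of sham rats were 8.70, 8.71 and 8.80. Both days therefore lay above the sham arrays for this list.

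**Figure D3:**
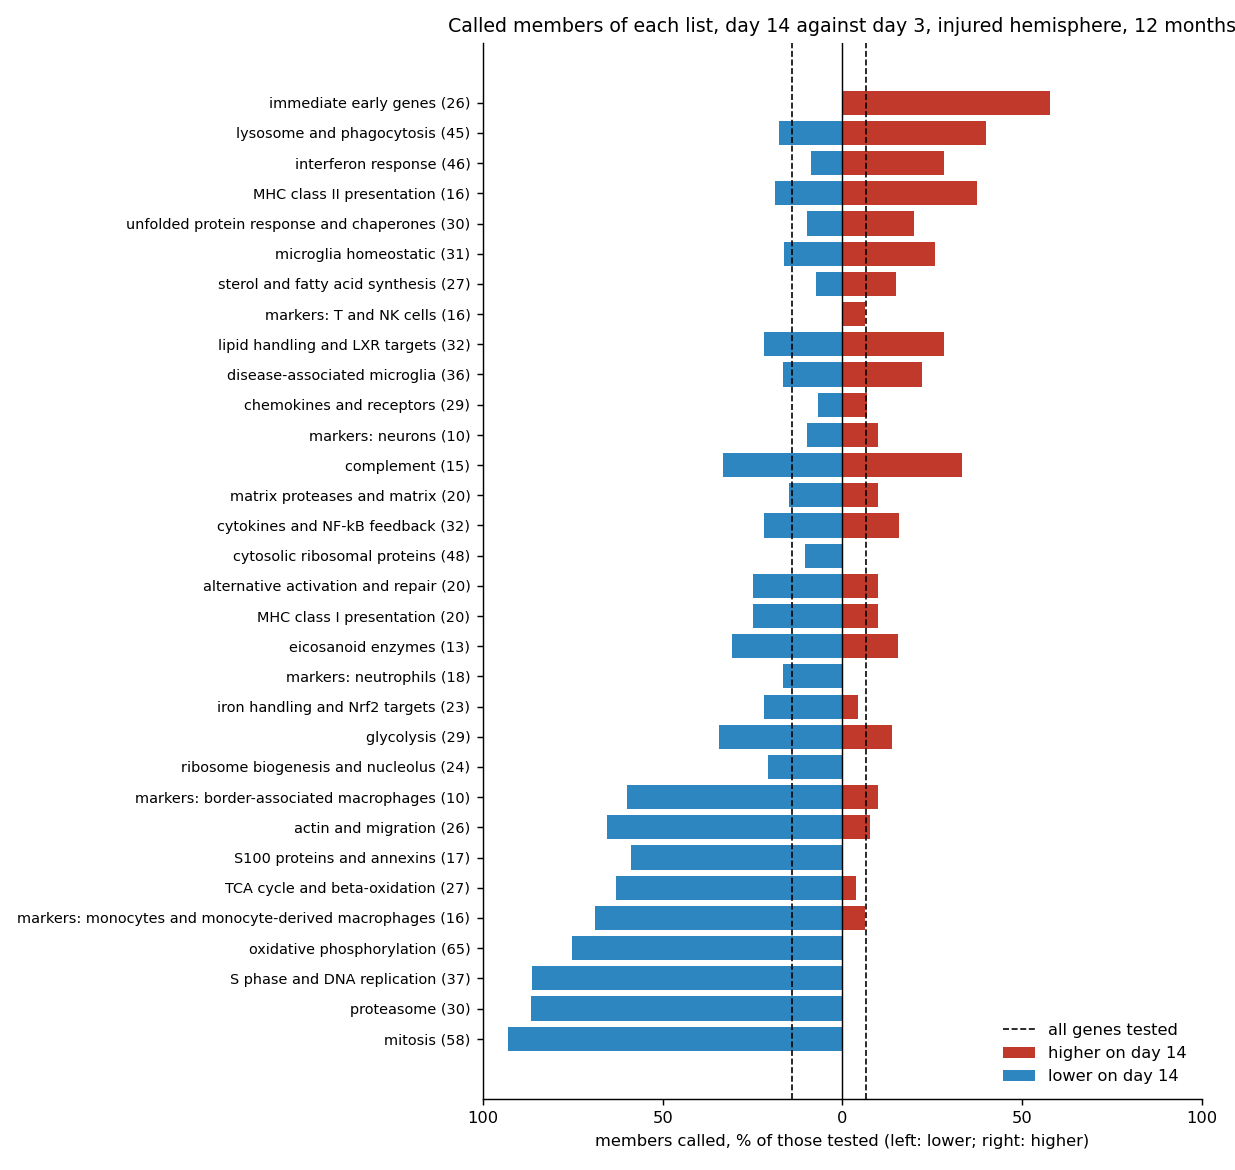
Share of each list's tested members called higher (red, to the right) or lower (blue, to the left) on day 14, in percent, for lists with at least 10 members tested (number in brackets); dashed lines mark all genes tested, 6.53% higher and 14.1% lower. Mitosis, proteasome, S phase and oxidative phosphorylation had the largest shares of lower members, and immediate early genes the largest share of higher ones.

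Markers of blood-derived and border macrophages were lower on day 14 beside these groups. Of 16 monocyte and monocyte-derived macrophage markers, 11 were lower and 1 was higher, with a median of -1.05. Without day 3 replicate 3, 7 were called lower. Gda, guanine deaminase, had 5.76, 4.73 and 4.89 on day 14 and 7.76, 7.43 and 8.08 on day 3, a difference of -2.63 ± 0.25. Plac8 differed by -1.84 ± 0.18 and Cd44, the hyaluronan receptor, by -1.40 ± 0.22. The higher member was F10, coagulation factor X (0.80 ± 0.13). Ccr2, the defining chemokine receptor of inflammatory monocytes, was low throughout, with 4.70, 4.87 and 4.85 on day 14 and 5.04, 4.97 and 5.16 on day 3, and was not called. Of 10 border-associated macrophage markers, 6 were lower and 1 was higher. Cd163, the haptoglobin-haemoglobin receptor, had 5.14, 4.46 and 4.12 on day 14 and 6.77, 6.29 and 7.01 on day 3 (difference -2.11 ± 0.26). Lyve1, the hyaluronan receptor of perivascular macrophages, had 7.47, 5.64 and 6.77 on day 14 and 9.12, 8.48 and 9.24 on day 3 (difference -2.32 ± 0.28). For both genes the 2 days did not overlap. Folr2, a folate receptor, differed by -2.07 ± 0.25. Mrc1, the mannose receptor, did overlap, with 7.32, 5.34 and 5.57 on day 14 and 7.17, 6.53 and 7.57 on day 3. Its difference was -1.02 ± 0.34 (adjusted p = 0.033, limma) with -1.64 without day 14 replicate 1 and -0.65 without day 14 replicate 2. The call was lost in 9 of 16 alternatives, among them leaving out day 14 replicate 2 or 3 or day 3 replicate 1 or 3. Siglec1, a sialic acid receptor of macrophages, was higher by 0.98 ± 0.23, and Pf4 had 9.38, 8.60 and 8.63 on day 14 and 8.75, 8.78 and 8.97 on day 3.

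The mean levels of these marker lists did not overlap between the days. The mean of the monocyte list was 6.07, 5.77 and 5.79 on day 14 and 6.73, 6.75 and 7.04 on day 3. The mean of the border macrophage list was 6.35, 5.43 and 5.66 on day 14 and 6.85, 6.41 and 6.94 on day 3, with sham arrays at 5.38, 5.39 and 5.47. Of 18 neutrophil markers, 3 were lower, S100a8, S100a9 and Hp, a share near the 14.1% of all genes, and none was higher. The count was 1 without day 14 replicate 2 and 6 in a fit to the 6 arrays. S100a9, a calcium-binding protein abundant in neutrophils and monocytes, had 7.69, 6.53 and 6.93 on day 14 and 8.89, 9.10 and 9.20 on day 3, against 8.28, 7.67 and 8.04 in sham rats. Mpo and Elane, granule genes that define neutrophils, differed by -0.07 and 0.06 and were not called. The S100 and annexin list had 10 of 17 members lower and none higher, with a median of -0.73, and 6 were called lower without day 14 replicate 2. S100a4, S100a6 and Anxa2 are also in the monocyte list, and S100a8 and S100a9 in the neutrophil list. Vim, Cd44 and Itga4 are in both the monocyte and the actin lists, so these lists are not separate groups of genes. S100a11 had 8.86, 6.34 and 6.91 on day 14 and 8.89, 9.29 and 9.58 on day 3, so that replicate 1 alone came close to day 3. Its difference was -1.88 ± 0.58 and -2.63 without that array, and the call was lost without day 14 replicate 2 or 3 or day 3 replicate 3. The mean over its probe sets differed by -0.98 and was not called. The part of these cells in the other differences was not tested. Markers of T and NK cells were mostly not called, with 1 of 16 higher. That gene was Cd4, which rat microglia and macrophages express as well, at 9.96, 10.00 and 10.26 on day 14 and 8.80, 8.90 and 9.07 on day 3. Among 8 oligodendrocyte, 9 astrocyte and 10 neuron markers, the numbers called were 2, 1 and 2, and leaving out 1 array brought the count in each direction to 0 at least once, except for lower oligodendrocyte markers. Of 8 endothelial markers 3 were lower (1 without day 3 replicate 3), with Esam at -0.76 and Cldn5 at -0.55.

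**Figure D4:**
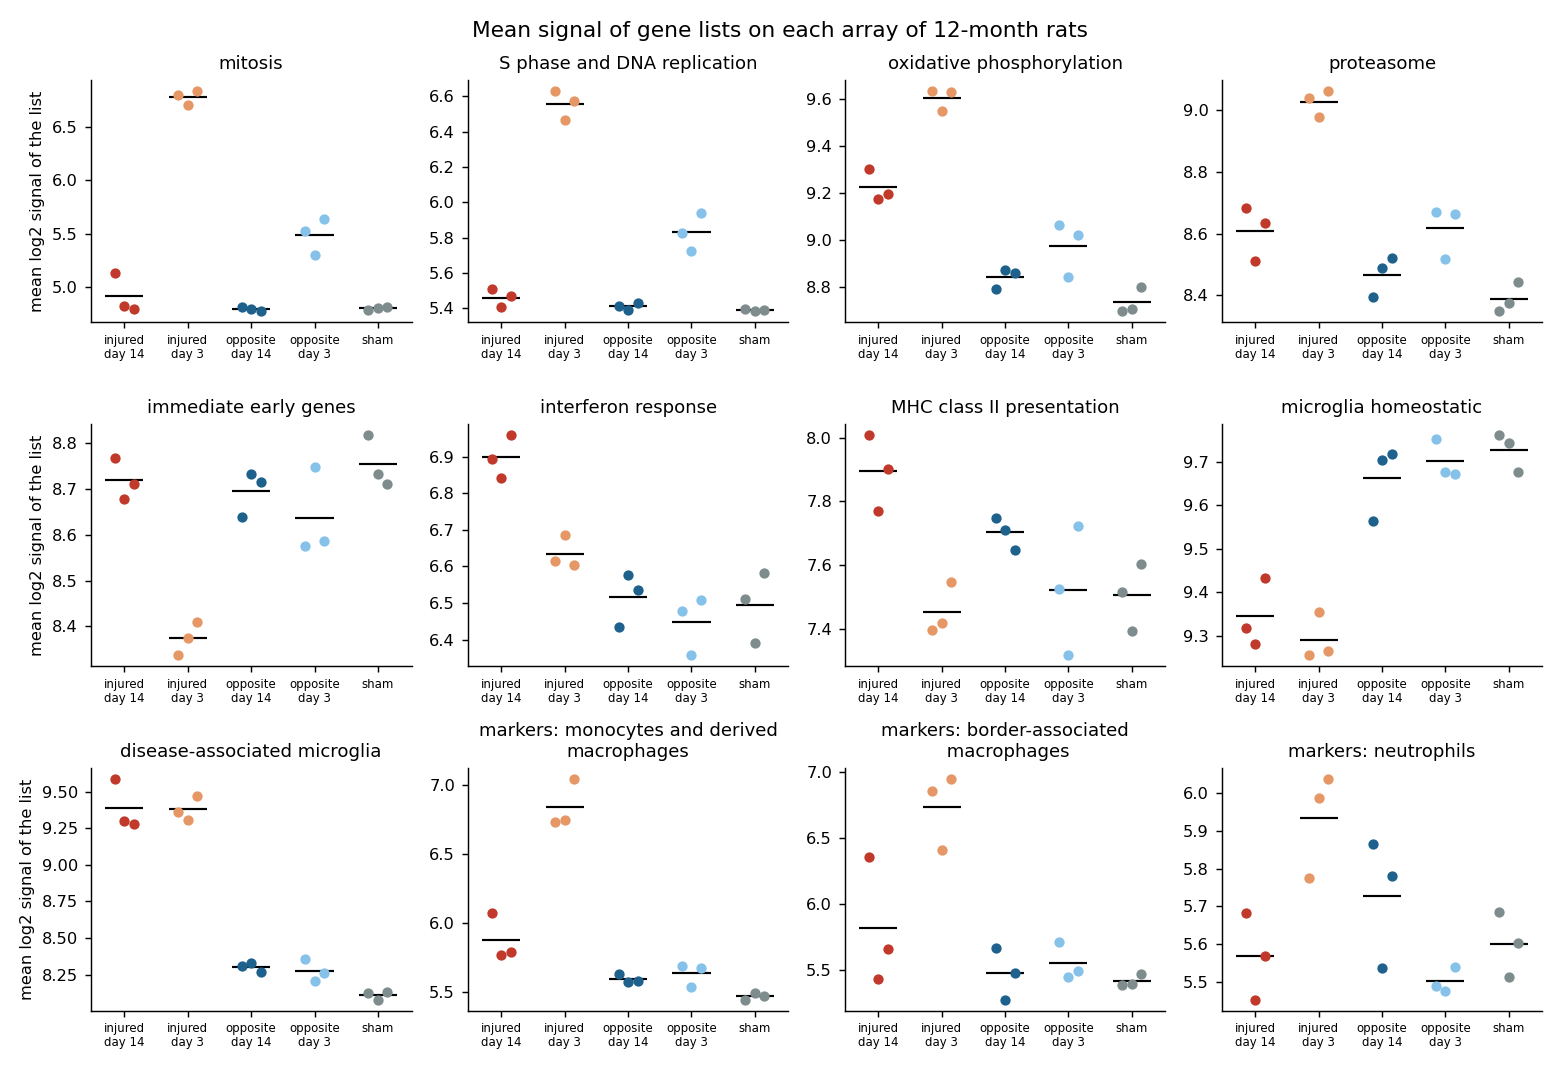
Mean log2 signal of 12 gene lists on each 12-month array (vertical axes), with injured and opposite hemispheres at day 14 and day 3 and sham rats along the horizontal axis; points are arrays and bars are means of 3. The mitosis list sat at 4.79 to 5.14 on day 14 and 6.70 to 6.83 on day 3 in the injured hemisphere, and the monocyte list at 5.77 to 6.07 and 6.73 to 7.04.

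The highest value of the comparison belonged to Axl, a receptor tyrosine kinase that binds Gas6 on dying cells. Axl had 10.04, 10.15 and 10.15 on day 14 and 7.34, 7.21 and 7.29 on day 3, a difference of 2.84 ± 0.18 log2 units or 7.14-fold (adjusted p = 3.9e-13, limma). Sham arrays read 5.93, 5.53 and 6.03, below both days. Gas6, its ligand, was higher by 0.45 ± 0.09, with 9.27, 8.96 and 9.20 on day 14 and 8.62, 8.70 and 8.74 on day 3. Mertk, the related uptake receptor of resting microglia, had 9.74, 9.57 and 9.70 on day 14 and 9.44, 9.54 and 9.49 on day 3 and was not called. Rab7b, a small GTPase of late endosomes, had 8.96, 9.18 and 9.24 on day 14 and 6.48, 6.28 and 6.61 on day 3, a difference of 2.67 ± 0.16 or 6.36-fold. Lag3, an inhibitory receptor that binds class II molecules, had 7.33, 7.68 and 7.83 on day 14 and 4.91, 5.29 and 5.29 on day 3 (difference 2.45 ± 0.14). In sham rats Lag3 read 6.21, 5.87 and 6.14, so that day 3 lay below and day 14 above the sham arrays. None of the 3 genes overlapped between the days.

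Of the others among the 15 highest, Coro6, a coronin of the actin skeleton, had 9.24, 9.59 and 9.59 on day 14 and 7.61, 7.74 and 7.61 on day 3 (difference 1.82 ± 0.11). Cd72, an inhibitory receptor best known from B cells, differed by 1.66 ± 0.11, although the B cell markers tested were not called (0 of 3). Fyn, a Src family kinase, differed by 1.74 ± 0.18 and Ak4, a mitochondrial adenylate kinase, by 1.67 ± 0.18. Aebp1, Serinc2 and Sulf2, the last a sulfatase that trims heparan sulfate, differed by 1.52, 1.42 and 1.41. Sham arrays for Cd72 read 6.78, 6.73 and 6.73, between day 14 at 7.85, 7.63 and 7.68 and day 3 at 6.05, 6.04 and 6.09.

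Genes associated with the disease-associated state of microglia split between the days. Of 36 tested, 8 were higher on day 14 and 6 were lower, against 6.53% and 14.1% of all genes, and the median was 0.07. The share called lower was thus near that of all genes. Besides Axl, the higher members were led by Csf1, a growth factor of macrophages (1.32 ± 0.17), Igf1, insulin-like growth factor 1 (1.30 ± 0.13), and Cd68, a lysosomal membrane protein (0.93 ± 0.12). Igf1 had 10.48, 10.48 and 10.32 on day 14 and 9.29, 9.0 and 9.09 on day 3, with sham arrays at 6.82, 7.09 and 7.14. Apoe, apolipoprotein E, had 13.00, 13.01 and 13.01 on day 14 and 12.35, 12.34 and 12.44 on day 3 (difference 0.63 ± 0.09), and Trem2, a lipid receptor, was higher by 0.34. The lower members were led by Spp1, osteopontin, which had 10.32, 8.24 and 8.75 on day 14 and 11.91, 11.90 and 11.95 on day 3. Its difference was -2.82 ± 0.28 log2 units and -3.43 without day 14 replicate 1, and all day 14 arrays stayed above the sham values of 5.90, 5.78 and 5.90. Fabp4, a fatty acid carrier, had 5.33, 5.25 and 4.60 on day 14 and 6.98, 6.93 and 7.71 on day 3 (difference -2.15 ± 0.28). Plin2, a lipid droplet coat protein, was lower by 0.93 log2 units (log2 value -0.93). Gpnmb, a glycoprotein of phagocytes, was high on both days, with 11.57, 11.39 and 11.33 on day 14 and 11.41, 11.18 and 11.47 on day 3, against 6.94, 6.57 and 7.11 in sham rats. Its difference was 0.08, with a 95% interval of -0.36 to 0.52. Lpl, lipoprotein lipase, had 6.64, 4.64 and 4.52 on day 14 and 5.96, 6.09 and 6.04 on day 3 and was not called, its replicate 1 lying above and the other day 14 arrays below day 3. Without that replicate, 9 of the 36 genes were called lower in place of 6, and without day 3 replicate 3 the number was 3. After renewed quantile normalization, 13 of the 36 genes were called higher in place of 8.

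Of 16 genes of class II antigen presentation, 6 were higher on day 14 and 3 lower, and 1 was called lower without day 14 replicate 2 or day 3 replicate 3. Cd74, the invariant chain, had 11.53, 11.26 and 11.63 on day 14 and 9.11, 9.33 and 9.69 on day 3, a difference of 2.10 ± 0.43 (adjusted p = 0.00061, limma). RT1-Da had 10.03, 9.53 and 9.99 on day 14 and 7.73, 7.45 and 8.26 on day 3 (2.04 ± 0.57), and RT1-Ba and RT1-Db1 differed by 1.72 and 0.91, the call of RT1-Db1 being lost when any 1 of the 6 arrays was left out. Neither Cd74 nor RT1-Da overlapped between the days, and the standard errors of both were wide. Cd86, a costimulatory molecule, was higher by 0.40 and Ctss, the protease that trims the invariant chain, by 0.28. RT1-DMa, of the peptide-loading molecule, had 10.65, 10.25 and 10.51 on day 14 and 10.90, 10.89 and 10.97 on day 3, and was lower by 0.45 log2 units (log2 value -0.45). Cd40 and RT1-DMb were also lower (-0.37 and -0.32). Ciita, the class II transactivator, had 4.60, 4.51 and 4.67 on day 14 and 4.49, 4.48 and 4.34 on day 3 and was not called. The RT1 genes belong to a family of similar sequences, and probes may read more than 1 member. Of 20 class I genes, 2 were higher (1 without day 14 replicate 3) and 5 lower (3 without day 3 replicate 3), among the lower Psmb8 and Psmb9 of the immunoproteasome (-0.42 and -0.38). Of 9 dendritic cell markers, Irf4 and Batf3 were higher (0.62 and 0.32), while the defining genes Flt3, Zbtb46 and Xcr1 were not called. The call of Batf3 was lost in 7 of 16 alternatives, among them leaving out day 14 replicate 1 or 3 or day 3 replicate 2 or 3.

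The interferon response was partly higher, with 13 of 46 genes higher on day 14, 4 lower and a median of 0.21. Irf7, a transcription factor of the type I response, had 7.01, 6.60 and 6.88 on day 14 and 5.48, 5.86 and 5.27 on day 3 (difference 1.29 ± 0.14). Ly6e had 7.69, 7.94 and 8.22 on day 14 and 6.56, 6.71 and 6.60 on day 3 (1.33 ± 0.22). Mx2 and Mx1, antiviral GTPases with similar sequences, differed by 1.14 and 1.00, and Ifit3 by 0.96. Isg15, a ubiquitin-like product of the response, differed by 0.60 ± 0.23 and was not called (adjusted p = 0.064, limma). Lgals9 and Oasl2 were lower (-0.83 and -0.59), and the mean of the Lgals9 probe sets differed by -0.45. Without day 14 replicate 3, 8 genes of the list were called higher, and without any 1 array other than day 14 replicate 1 or day 3 replicate 3, 2 were called lower. An element of interferon-induced promoters, GAAANNGAA, was searched as above, and the Irf7 promoter is shown for its match, which reads on the opposite strand and starts at -68.
Irf7: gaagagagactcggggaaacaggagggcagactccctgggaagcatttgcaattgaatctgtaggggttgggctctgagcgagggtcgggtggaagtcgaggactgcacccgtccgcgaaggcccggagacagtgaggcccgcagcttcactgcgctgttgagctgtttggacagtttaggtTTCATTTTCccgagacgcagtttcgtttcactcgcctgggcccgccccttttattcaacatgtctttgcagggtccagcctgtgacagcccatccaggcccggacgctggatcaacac
This window lies at chr1:205799974-205800273 (minus strand). Of 7 called interferon genes with a promoter in the table, 4 (57.1%) held the element, as did 15 of 22 (68.2%) of the members not called, all 4 of those called lower and 7.48% of the genes tested.

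Complement components moved in both directions. Of 15 genes, 5 were higher and 5 lower. C3, the central component, had 11.39, 11.21 and 11.35 on day 14 and 9.18, 9.36 and 9.38 on day 3, a difference of 2.01 ± 0.10 or 4.04-fold, with sham arrays between, at 10.63, 10.43 and 10.66. Cfd, the protease of the alternative pathway, had 9.16, 8.69 and 8.66 on day 14 and 7.66, 6.98 and 7.57 on day 3 (1.43 ± 0.24). C1r, a protease of the classical pathway, and Serping1, its inhibitor, were higher by 0.85 and 1.07. Cfp, properdin, which stabilises the alternative convertase, had 7.81, 7.05 and 7.44 on day 14 and 8.53, 8.34 and 8.57 on day 3 (-1.05 ± 0.17). The anaphylatoxin receptors C5ar1 and C3ar1 were lower (-0.80 and -0.54), as were C1qb and C1qc (-0.45 and -0.33). C1qa had 11.52, 11.40 and 11.47 on day 14 and 11.43, 11.52 and 11.51 on day 3, a difference of -0.02 with a 95% interval of -0.18 to 0.13.

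Of 45 lysosome and phagocytosis genes, 18 were higher on day 14 and 8 lower, with a median of 0.15. Without any 1 array other than day 14 replicate 1, the number called lower was 3 to 5. Besides Axl and Rab7b, Gaa, the lysosomal glucosidase, had 9.77, 9.86 and 9.85 on day 14 and 8.83, 8.87 and 8.91 on day 3 (0.95 ± 0.08). Hexa, a hexosaminidase subunit, was higher by 0.58, Mfge8, a bridging protein of dying cells, by 0.46, and Tfeb, a transcription factor of lysosomal genes, by 0.40. The Fc receptor Fcgr3a had 8.73, 8.34 and 8.63 on day 14 and 10.09, 10.06 and 10.12 on day 3 (-1.52 ± 0.13), and Ctsc, cathepsin C, was lower (-0.70). Of 32 lipid handling genes, 9 were higher and 7 lower. Abca1 and Abcg1, cholesterol exporters induced by liver X receptors, were higher by 0.55 ± 0.08 and 0.58 ± 0.09. Abca1 had 10.08, 9.95 and 10.05 on day 14 and 9.52, 9.34 and 9.55 on day 3. Fabp3 was higher by 1.01 while Fabp4 and Fabp5 of the same family were lower (-2.15 and -0.51). In sterol and fatty acid synthesis, 4 of 27 genes were higher and 2 lower. Acaca, acetyl-CoA carboxylase, was higher by 1.02 ± 0.11 and Fasn, fatty acid synthase, by 0.48, while Fads1, a desaturase, and Sqle of the sterol pathway were lower (-1.08 and -0.81).

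Immediate early genes were higher as a group. Of 26 tested, 15 were higher on day 14 and none lower, against 6.53% of all genes, with a median of 0.40. Nr4a2, an orphan nuclear receptor, had 9.24, 9.20 and 8.98 on day 14 and 8.13, 8.0 and 7.94 on day 3 (1.11 ± 0.14). Nr4a3, Fos, Atf3 and Klf4 were higher by 0.92, 0.75, 0.67 and 0.62. Fos had 10.80, 10.47 and 10.80 on day 14 and 9.66, 10.05 and 10.11 on day 3, with sham arrays at 11.01, 10.87 and 11.08. The mean of the list was 8.77, 8.68 and 8.71 on day 14 and 8.34, 8.38 and 8.41 on day 3, and 8.82, 8.73 and 8.71 in sham rats, so that the lower group was day 3.

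Cytokine genes were divided. Of all genes, 6.53% were called higher and 14.1% lower. The shares of chemokine genes called higher and of matrix genes called lower, given below, were near these. Of 32 genes of cytokines and NF-kB feedback, 5 were higher and 7 lower, and 3 were called higher when any 1 array other than day 3 replicate 3 was left out. Osm, oncostatin M, had 9.28, 9.84 and 9.33 on day 14 and 8.57, 8.56 and 8.41 on day 3 (0.97 ± 0.15). Il1b, interleukin 1 beta, had 9.70, 9.40 and 9.52 on day 14 and 8.97, 8.53 and 9.06 on day 3. Its difference of 0.69 ± 0.25 passed narrowly (adjusted p = 0.047, limma), and the call was lost when any 1 of the 6 arrays was left out. Tnf had 9.59, 9.57 and 9.82 on day 14 and 9.66, 9.89 and 9.89 on day 3 and was not called. Cd14, the lipopolysaccharide co-receptor, had 9.87, 9.08 and 9.22 on day 14 and 10.70, 10.30 and 10.63 on day 3 (-1.15 ± 0.21). Nos2, the inducible nitric oxide synthase, and Socs3, a feedback inhibitor, were lower (-1.14 and -0.77). Of 29 chemokines and receptors, 2 were higher, Cxcl13 (1.20 ± 0.26) and Cxcl16 (0.64 ± 0.10), and 2 lower, Ccl2 (-0.55) and Ccr1. Ccr1 was under the 30th percentile on all 3 day 14 arrays and 2 of the day 3 arrays, and no size is given for it. The count of lower members was 0 without day 14 replicate 2 or day 3 replicate 3, 1 without day 14 replicate 3 or day 3 replicate 1 and 4 without day 14 replicate 1, and the difference of Ccl2 was -0.33 without day 14 replicate 2. The 20 genes of alternative activation and repair had 2 higher members, Igf1 and Gdf15 (0.84), and 5 lower ones, which included Cd163, Mrc1 and Clec10a of the border macrophage list and Arg1 (-0.33). The number called lower was 2 without day 3 replicate 3, 3 without day 14 replicate 3 and 7 in a fit to the 6 arrays. Of 20 matrix genes, 2 were higher (1 without day 14 replicate 1 or day 3 replicate 2) and 3 lower, or 7 lower in a fit to the 6 arrays. Timp1, the inhibitor of matrix proteases, had 8.56, 7.78 and 7.84 on day 14 and 9.61, 9.26 and 9.59 on day 3 (-1.43 ± 0.15).

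Genes that mark resting microglia showed small differences. Of 31, 8 were higher on day 14 and 5 lower, against 6.53% and 14.1% of all genes, with a median of 0.08. The share called lower was near that of all genes. The number called lower was 1 without day 14 replicate 2 and 3 without day 3 replicate 2. The number called higher was 12 after renewed quantile normalization and 6 with arrays centred on their median. Smad3, of the transforming growth factor beta pathway that maintains microglia, was higher by 0.56 ± 0.09 and Rnase4 by 0.60 ± 0.14. P2ry6, a nucleotide receptor for phagocytosis, had 8.19, 8.02 and 8.28 on day 14 and 8.80, 8.85 and 8.63 on day 3 (-0.60 ± 0.11). Gpr34, a lysophosphatidylserine receptor, was lower (-0.43 ± 0.13). P2ry12 and Cx3cr1, with the values above, both differed by -0.07, with 95% intervals of -0.29 to 0.15 and -0.24 to 0.11. Csf1r, the receptor on which microglia depend, differed by -0.05 (95% interval -0.21 to 0.10). Tmem119 had 7.97, 7.44 and 8.04 on day 14 and 7.86, 8.03 and 7.82 on day 3, against 9.25, 9.23 and 8.92 in sham rats. The list mean was 9.32, 9.28 and 9.43 on day 14 and 9.26, 9.35 and 9.27 on day 3, both below the sham arrays at 9.76, 9.74 and 9.68. Smaller groups stood as follows. Of 30 unfolded protein response and chaperone genes, 6 were higher, led by Asns, asparagine synthetase (0.90), and 3 were lower (1 without day 14 replicate 2 or day 3 replicate 1 or 3). Of 23 iron and Nrf2 genes, Gclc, of glutathione synthesis, was higher (1.16 ± 0.13) and 5 were lower, with the metallothionein Mt2A at -0.87. Of 13 eicosanoid genes 2 were higher and 4 lower, with the lipase Pla2g7 at -1.84 ± 0.28. None was called higher without day 14 replicate 3 or day 3 replicate 1 or 3, and 1 was without day 14 replicate 1 or day 3 replicate 2. Taldo1 and Pgls of the pentose phosphate pathway were lower (-1.08 and -0.34) among 5 tested, and the call of Pgls was lost when any 1 of the 6 arrays was left out. Of 24 genes of ribosome biogenesis, 5 were lower.

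Set beside the 12-month sham arrays, the called genes took different positions. Over all genes tested, the 3 day 14 arrays lay wholly above the sham arrays in 19.2% and wholly below in 17.1%, and the 3 day 3 arrays in 28.1% and 25.2%. Of the 1642 genes lower on day 14, 795 overlapped sham on day 14 and lay above it on day 3, as Top2a and Ccnb1 did. Another 554 lay above sham on both days, Spp1 and Fabp4 among them, and 85 lay below sham on day 14 and above it on day 3, Lyve1, Plac8, S100a4 and Fcgr3a among them. Of the 762 genes higher on day 14, 272 overlapped sham on day 14 and lay below it on day 3. A further 148 lay above sham on day 14 and overlapped it on day 3, 126 lay below it on both days, and 95 lay above it on both, as Axl and Igf1 did. Another 73 lay above sham on day 14 and below it on day 3, as C3 and Cd72 did. Because these genes were chosen for their difference between the days, the counts are a description, and the sham rats were not matched to either day.

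The opposite hemisphere of the same animals showed fewer differences between day 14 and day 3. There, 124 of 11675 genes (1.06%) were called, 16 higher (0.137%) and 108 lower (0.925%). Of the mitosis list 42 of 58 genes were lower on day 14 in that hemisphere and of the S phase list 15 of 37. Top2a had 4.77, 4.55 and 4.62 on day 14 and 7.19, 6.66 and 7.36 on day 3 there, a difference of -2.42. No member of the oxidative phosphorylation, proteasome, monocyte or immediate early lists was called. C3 and Lag3 were higher on day 14 in both hemispheres, by 0.61 and 0.67 in the opposite one. The difference between the hemispheres was tested as an interaction. It was called for 623 genes (5.34%), 204 with a more positive change in the injured hemisphere (1.75%) and 419 with a more negative one (3.59%). When the arrays were quantile-normalized again, the numbers were 253 and 327. The 2 hemispheres of a rat are not independent, and with the animal as a random block 694 genes were called in all. Of the 762 higher genes 192 passed this test, and of the 1642 lower genes 414 did. Rab7b and Axl had the highest values, with changes of 2.67 and 2.84 in the injured and 0.27 and 0.54 in the opposite hemisphere. Of the mitosis list 47 of 58 genes passed with a more negative change in the injured hemisphere, and of the S phase list 20 of 37. For Cd74 the change was 2.10 in the injured and 1.00 in the opposite hemisphere, and the difference of 1.10 was not called (adjusted p = 0.40, limma). Of the 65 oxidative phosphorylation genes, 6 passed with a more negative change in the injured hemisphere and 1, Ndufa1, with a more positive one. Of 30 proteasome genes 1 passed with a more negative change, and of 26 immediate early genes 2 with a more positive one. Most members of these lists were thus not shown to differ between hemispheres. Of 16 monocyte markers, 6 passed with a more negative change and 1 with a more positive one.

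**Figure D5:**
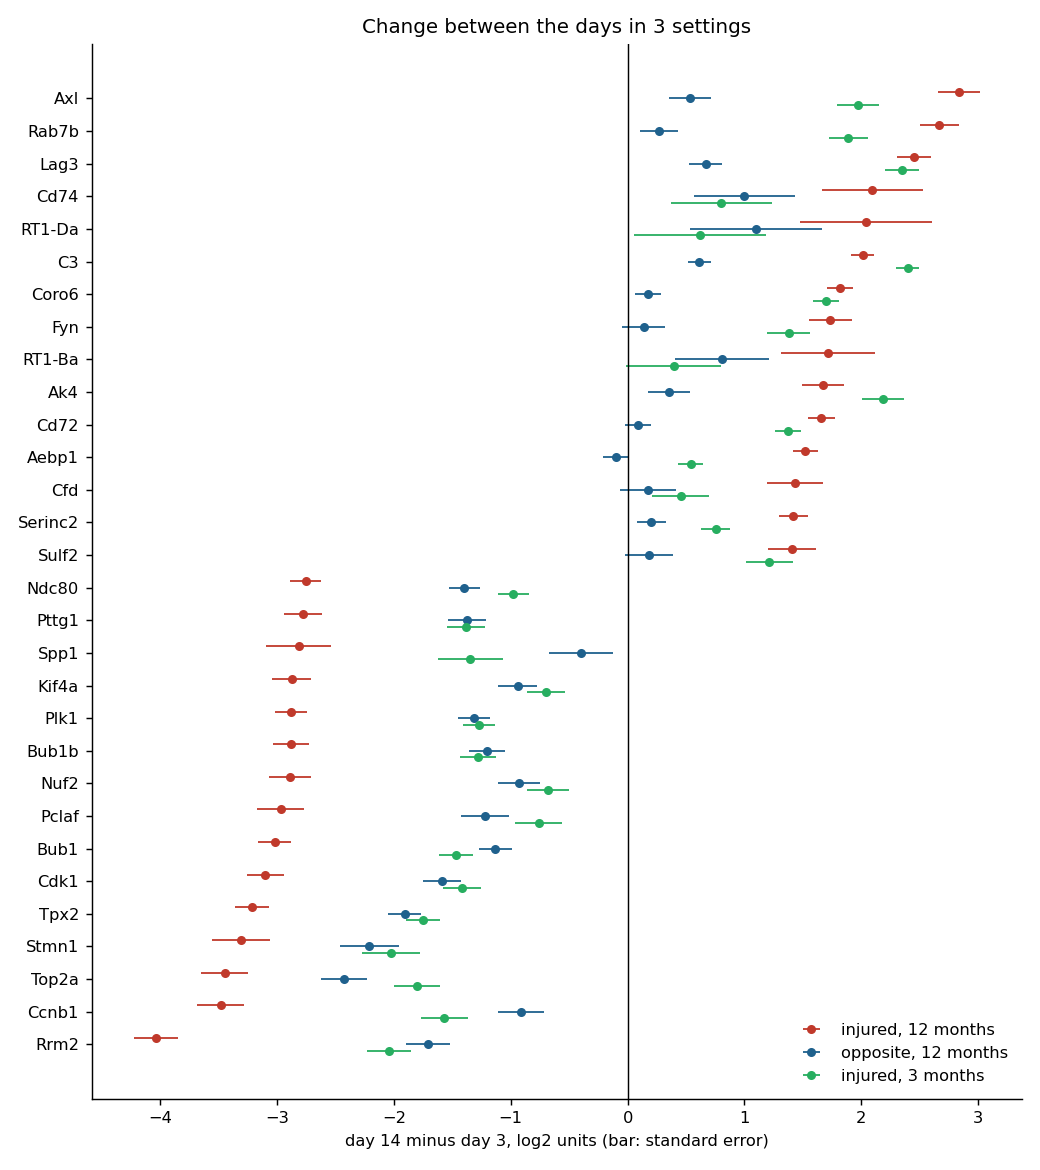
Difference between day 14 and day 3 in log2 units (horizontal axis, positive where day 14 was higher; bars are standard errors) for the 15 highest and 15 lowest genes of the injured hemisphere at 12 months, with the opposite hemisphere at 12 months and the injured hemisphere at 3 months. The genes were chosen on the red points, and those of Nuf2 and Kif4a rest on day 14 signals under the 30th percentile. Those of Cdk1, Bub1 and Bub1b do so on 2 of the 3 day 14 arrays. Axl differed by 2.84, 0.54 and 1.97 in these settings and Rrm2 by -4.04, -1.71 and -2.04.

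In the injured hemisphere of 3-month rats, 3451 genes (29.6%) were called between day 14 and day 3, 2574 higher (22%) and 877 lower (7.51%). Quantile normalization of the arrays again gave 1790 higher and 1199 lower genes there. At that age the trailing number of the sample codes differed between day 14 and day 3, whereas at 12 months it was the same for all samples, so that the age comparison and this number cannot be told apart. The ages differed in the change between the days for 2778 genes (23.8%), 456 with a more positive change at 12 months (3.91%) and 2322 with a more negative one (19.9%). With renewed quantile normalization they were 1342 genes, of which 28.5% were more positive, against 16.4% before. Of the 58 mitosis genes, 43 were lower on day 14 at 3 months, and 54 passed the test of the difference with a more negative change at 12 months. Among division genes named here, Bub1, Bub1b, Cdk1, Kif4a, Nuf2 and Pbk lay under the 30th percentile on all 3 of the 3-month day 14 arrays. On day 3 at that age Kif4a and Pbk did so on 2 arrays and Nuf2 on 1. Their changes at 3 months are therefore not measured sizes. Gins1 differed by -2.72 at 12 months and -0.34 at 3 months. Pbk, a mitotic kinase, differed by -2.49 at 12 months, with 2 of its 3 day 14 arrays under the 30th percentile. At 3 months the day 14 arrays of Pbk were all under that percentile. Of 30 proteasome genes, 4 were higher and none lower at 3 months, and of 65 oxidative phosphorylation genes 8 were higher and 5 lower. The tests of the difference passed for 26 and 34 genes of these lists. Axl, C3 and Lag3 were higher on day 14 at 3 months too, by 1.97, 2.40 and 2.35. Il1b changed by 0.69 at 12 months and -1.0 at 3 months, and the difference of 1.68 was called (adjusted p = 0.0012, limma). Of the 10 border macrophage markers, 9 were lower on day 14 at 3 months, against 6 at 12 months. The test of the difference passed for 4 of the 10, each with a more positive change at 12 months.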

How the data were processed

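The authors deposited 1 matrix of log2 signals for the 30 arrays, made by RMA in Affymetrix Expression Console per the submitters' processing notes (no versions given). No scanner files or detection calls were used here. RNA (RIN above 7.0) was amplified from 50 ng and 5 µg of labelled cDNA hybridised, per the labels' protocols. RMA carries out background correction, quantile normalization and summarisation, so values are relative within the array and a change shared by most genes would not appear.

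Of 29214 probe sets, 15310 carried 1 gene symbol in the platform annotation (323 several, 13581 not listed). Symbols were updated through RefSeq. A gene was represented by its probe set with the highest mean and kept if it exceeded the array's 30th percentile on at least 3 arrays, which left 11675 of 14506 genes. A gene at or under that percentile on all 3 arrays of day 14 or of day 3 was given a bound, or no size where the bound showed no difference.

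Group means of all 30 arrays were fitted with limma 3.58.1 (R 4.3.3). The fit left 20 degrees of freedom, and the prior added 8.80. Benjamini-Hochberg adjustment ran over all genes tested, and called means an adjusted p under 0.05. Differences between hemispheres and ages were contrasts of the same fit. Errors are standard errors, and intervals are 95% and unadjusted. With 3 arrays a group, the number of arrays limits the precision, and p-values measure the spread between rats of a group as labelled. In simulated data of the same size, 100% of 100 genes changed by 1 log2 unit, 70% of 100 changed by 0.5 and 0.122% of unchanged genes were called. The simulated noise was normal and independent for each gene and array, without links between genes or between the hemispheres of a rat. Its rates need not hold for the real arrays.

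Replicate numbers name different rats on the 2 days. Deviations of same-numbered arrays correlated at 0.04, 0.13 and -0.01, so the samples were not paired. No 2 arrays were identical. Named genes were the 15 highest and 15 lowest called genes without overlap, up to 4 called members at each end of a list with the members that define it, and 6 at each end of the difference contrasts. Members named beside these were chosen after their values were seen. Members and lists were chosen with earlier results of these data known. Some list members, such as Mki67, were not analysed here. Promoters came from RefSeq's table for GRCr8, in which 9670 of the 11675 genes matched by symbol.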

Additional observations from a re-analysis of the deposited data

Results flagged for a closer look

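The results in this part were singled out because the change between day 14 and day 3 in the injured hemisphere of 12-month rats differed, in limma's test of the difference (adjusted p under 0.05), from the change in the opposite hemisphere or from that at 3 months. They came from the 15 highest and 15 lowest genes and from the ends of both difference tests, so that they were chosen for their size. A positive value means a more positive change in the injured hemisphere or at 12 months.

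Between the hemispheres, the largest positive differences in log2 units were those of Rab7b (2.40) and Axl (2.30), followed by Cxcl13 (1.83), Lag3 (1.78), Coro6 (1.65), Aebp1 (1.62), Fyn (1.60) and Cd72 (1.57). C3 (1.40), Ak4 (1.32), Cfd (1.26), Sulf2 (1.22) and Serinc2 (1.21) passed as well. Axl changed by 2.84 in the injured and 0.54 in the opposite hemisphere, and Cxcl13 by 1.20 and -0.63. Negative differences included those of S100a11 (-3.07), S100a9 (-2.87) and S100a8 (-2.56), whose changes in the opposite hemisphere of 1.18, 0.86 and 0.65 were not called. Gda (-2.64) and Spp1 (-2.42) changed by 0.02 and -0.40 there, which were not called either. The differences of S100a11, S100a9 and S100a8 had wide standard errors of 0.82, 0.74 and 0.73 (adjusted p = 0.023, 0.016 and 0.032, limma). In the injured hemisphere the call of S100a11 was lost in 5 of 16 alternatives and that of S100a8 in 1. The division genes were Ccnb1 (-2.57), Rrm2 (-2.33), Nuf2 (-1.96), Kif4a (-1.93), Bub1 (-1.89), Pclaf (-1.75), Bub1b (-1.68), Plk1 (-1.57), Cdk1 (-1.51), Pttg1 (-1.41), Ndc80 (-1.36), Tpx2 (-1.31) and Top2a (-1.03). Nuf2 and Kif4a lay under the 30th percentile of signal on all day 14 arrays of both hemispheres, as Bub1, Bub1b and Cdk1 did in the opposite one and Serinc2 did there on both days, so that their values are fitted differences and not measured sizes. All of these division genes were also called lower on day 14 in the opposite hemisphere.

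Between the ages, at 3 months the trailing number of the sample codes differed between the days, and its part cannot be told apart from age. Division genes had more negative changes at 12 months, namely Gins1 (-2.39), Pbk (-2.23), Nuf2 (-2.21), Pclaf (-2.21), Kif4a (-2.18), Rrm2 (-2.00), Ccnb1 (-1.91), Ndc80 (-1.78), Cdk1 (-1.68), Top2a (-1.65), Plk1 (-1.61), Bub1b (-1.60), Bub1 (-1.55), Tpx2 (-1.46), Pttg1 (-1.40) and Stmn1 (-1.28). Nuf2, Kif4a, Pbk, Cdk1, Bub1 and Bub1b lay under the 30th percentile on all 3-month day 14 arrays, and Nuf2 and Kif4a on those of 12 months, and their values too are not measured sizes. Serping1 (-2.15) changed by 1.07 at 12 months and 3.22 at 3 months, and C3 (-0.39) by 2.01 and 2.40. Spp1 (-1.47) was called lower on day 14 at both ages. More positive changes at 12 months were those of Acod1 (1.83), Il1b (1.68), Ccl6 (1.66), Mrc1 (1.58), Il1r2 (1.51) and Clec4e (1.49), of which Il1b (higher on day 14) and Mrc1 (lower) were called at 12 months. Clec4e lay under the 30th percentile on all day 14 arrays of both ages, so that its value is not a measured size. Aebp1 (0.98), Cfd (0.98), Axl (0.86), Rab7b (0.78) and Serinc2 (0.66) completed this group.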

How the results depend on the processing

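The number of genes called between day 14 and day 3 in the injured hemisphere at 12 months was 2404, ran from 2168 to 3364 over 11 alternatives, the highest with all probe sets in place of 1 a gene, and from 1720 to 2211 when 1 array was left out. With the replicate block, which pairs only numbers, it was 2491, against 2493 in the same 6 arrays without it. With the animal as a random block it was 2418. In the opposite hemisphere leaving out 1 array gave 58 to 131 genes in place of 124, with 77 without day 14 replicate 2, 74 without day 3 replicate 1 and 58 without day 3 replicate 3. For the difference between hemispheres the count was 694 with the animal as a random block and 765 with the replicate block, and leaving out 1 array gave 412 to 649 in place of 623 (412 without day 3 replicate 2 of the opposite side), and more positive changes made up 32.7% of the calls, or 43.6% after renewed quantile normalization. At 3 months the count of 3451 became 5455 with all probe sets, its share of higher genes was 74.6%, or 59.9% with renewed quantile normalization, and the range without 1 array was 2441 to 3364. For the difference between ages the count of 2778 became 1342 with renewed quantile normalization and 1766 to 2935 without 1 array (1766 without day 14 replicate 2 at 12 months, 1825 without day 14 replicate 1 at 3 months). Of 140 called genes named in the text, 22 lost the call under at least 1 of 16 alternatives, 3 were not tested under the stricter filter, and no direction was reversed where a value was had. Those that lost it were Arg1, Batf3, C1qc, Ccl2, Ccr1, Cd40, Cldn5, Ctss, Fabp5, Gpr34, Hp, Il1b, Mfge8, Mrc1, Oasl2, Pgls, Psmb9, RT1-Db1, RT1-DMa, RT1-DMb, S100a11 and S100a8. Mitosis genes called lower numbered 50 to 55, S phase genes 28 to 32, oxidative phosphorylation genes 35 to 53 and proteasome genes 19 to 28. Immediate early genes called higher numbered 12 to 16, interferon genes 8 to 17 and lysosomal genes 14 to 24. The causes were not tested.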
